A study of Mus musculus with 12 samples.

Results

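The proteasome subunit genes were described in lung CD4+ T cells of neonatal and juvenile mice that had aspirated Escherichia coli or saline. The 39 members are the rows of the gene count table whose symbol is Psma, Psmb, Psmc, Psmd or Psme followed by a digit, without the interferon-inducible Psmb8, Psmb9 and Psmb10, the thymic Psmb11 and a pseudogene, out of 19434 genes counted. They fall into 7 structural groups: 8 genes of the alpha ring, 7 of the constitutive beta ring, 6 ATPases, 3 other subunits of the base, 8 of the lid, 3 chaperones that assemble the base and 4 activators. Of the 39, 38 passed the filter on low counts. Psma8, the spermatogenic form of an alpha subunit, did not. It had 2, 0 and 0 counts in the neonatal PBS pools, 0, 2 and 2 in the neonatal E. coli pools, 1, 0 and 1 in the juvenile PBS pools and 5, 0 and 1 in the juvenile E. coli pools, values at this depth from which no difference could be read.

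The proteasome is the protease that degrades ubiquitin-tagged proteins in the cytosol and nucleus. Its barrel has outer alpha rings that gate the entrance and inner beta rings that hold the catalytic sites. A regulatory particle, made of an ATPase ring with its base subunits and a lid, recognises, deubiquitinates and unfolds the substrate, and activators dock on the same barrel without ubiquitin. Lymphocytes and cells exposed to interferon make inducible catalytic subunits that replace the constitutive ones, and the interferon-inducible activator Psme1 with Psme2 favours peptides for antigen presentation.

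All mice were C57BL/6NJ of both sexes and carried no engineered allele that the labels name. Neonates were 5 days old and juveniles 15 days old when they aspirated E. coli (2800000 colony-forming units) or phosphate-buffered saline (PBS), and lung CD4+ T cells were isolated 48 h later with beads and flow sorting. Each library is a pool of cells from 3 neonates or 2 juveniles, so the spread is between pools, and each group has 3 pools: neonatal PBS (NP1 to NP3), neonatal E. coli (NE1 to NE3), juvenile PBS (JP1 to JP3) and juvenile E. coli (JE1 to JE3). RNA-seq gave 6035445 to 8129983 counts per library, and levels are given as scaled counts-per-million values (CPM). At that depth 3 counts amount to 0.374 to 0.494 CPM, and every tested member stood above 10 CPM in every library.

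Of the lists of marker genes, 7 T cell markers summed to 4783 to 5446 CPM in neonatal PBS, 4666 to 4935 in neonatal E. coli, 5519 to 6083 in juvenile PBS and 4465 to 4817 in juvenile E. coli pools, and no matched marker of any list was at 0 counts over all 12 libraries. The sum of 12 proliferation genes was 3448 to 4412 CPM in neonatal PBS, 3214 to 3505 in neonatal E. coli, 1440 to 2616 in juvenile PBS and 3449.8 to 5231 in juvenile E. coli pools. The sum of 9 interferon-response genes was 2091 to 3288 CPM in juvenile E. coli pools and 934 to 1170.1 in the other 9 libraries. The 12 monocyte and macrophage genes summed to 887 to 1243 CPM in juvenile E. coli pools and 393 to 708 elsewhere, and the 8 lung epithelial genes to 90.4 to 204.8 CPM there, 34.4 to 41.9 in juvenile PBS, 46.5 to 82.5 in neonatal PBS and 62.3 to 172 in neonatal E. coli pools. The 10 neutrophil genes summed to 9.40 to 21.8 CPM in juvenile E. coli pools, 0.165 to 3.31 in juvenile PBS, 10.1 to 54.9 in neonatal E. coli and 0.833 to 3.27 in neonatal PBS pools. The part of these sums in the results below was not tested. In such bulk samples fewer cells of a type and less RNA per cell cannot be told apart.

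Sequence is shown for 4 members. Psmb5 and Psmb6 are catalytic subunits whose upstream windows hold a core of the antioxidant response element. Psma4 was called in the juvenile response and Psme2 in the comparison of ages after E. coli. Their windows hold none of the motifs searched. Psme4, called in the comparison of ages after PBS, also held none and is not shown. Each run is the 150 bases before the RefSeq start site, 5′ to 3′ on the gene's strand in GRCm38.p6, and capitals mark the motif.
Psmb5: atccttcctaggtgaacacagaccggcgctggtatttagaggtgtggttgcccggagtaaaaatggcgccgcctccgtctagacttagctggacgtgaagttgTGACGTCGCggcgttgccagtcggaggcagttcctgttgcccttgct
Psmb6: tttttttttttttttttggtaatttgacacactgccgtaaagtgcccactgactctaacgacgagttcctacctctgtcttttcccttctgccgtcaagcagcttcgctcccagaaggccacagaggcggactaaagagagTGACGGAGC
Psma4: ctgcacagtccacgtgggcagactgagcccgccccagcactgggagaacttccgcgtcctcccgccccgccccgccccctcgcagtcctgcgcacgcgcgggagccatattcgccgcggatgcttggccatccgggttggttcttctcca
Psme2: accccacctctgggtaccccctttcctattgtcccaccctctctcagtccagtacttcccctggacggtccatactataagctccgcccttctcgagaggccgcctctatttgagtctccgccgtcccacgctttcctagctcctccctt
The windows are chr14:54617996-54618145 (minus strand), chr11:70525207-70525356 (plus), chr9:54950709-54950858 (plus) and chr14:55591102-55591251 (minus). The match lies at -47 to -39 from the start site in Psmb5 and at -9 to -1 in Psmb6.

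The search covered the 250 bases before the start site on both strands, in 32 of the 39 members found in the RefSeq table. Psma8, Psmb1, Psmb2, Psmb7, Psmc3, Psmd3 and Psmd7 were not matched. The antioxidant response element core TGACNNNGC, the kind of site that Nfe2l1 and Nfe2l2 bind, was in 5 of 32 members (15.6%) and in 11.5% of the 27025 genes of the table. Those members were Psmb5, Psmb6, Psmc6, Psmd9 and Psmd12. The CCAAT box was in 12 members, 37.5% of them and 37.5% of all genes. The interferon-stimulated response element core (GAAA, any 2 bases, GAAA) was in 3 members, Psmb3, Psmd4 and Psmd9 (9.38% against 3.46%), and the gamma-activated site TTCNNNGAA was in 0 of 32 (8.13% of all genes). A match is a stretch of letters and not a measured site.

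Per kilobase of exon, the level over the 12 libraries was highest for Psme1, at 455.6 CPM per kilobase, against 125.2 for its partner Psme2. Alpha-ring genes ranged from 41.2 (Psma3) to 125.5 (Psma6) CPM per kilobase and constitutive beta-ring genes from 21.5 (Psmb1) to 89.0 (Psmb7). ATPases ranged from 25.1 (Psmc4) to 62.8 (Psmc2), and lid genes from 10.6 (Psmd13) to 99.7 (Psmd14, the lid's deubiquitinase). The chaperones of the base were lowest, from 5.93 (Psmd9) to 14.1 (Psmd10). Levels per kilobase thus differed between subunits of the same ring. The lengths are union exon lengths from GENCODE M21, which may not be the gene models the counts were made on.

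The summed level of the 39 members overlapped between all 4 groups. The neonatal PBS pools had 3732, 3629 and 3813 CPM, and the neonatal E. coli pools 3708, 3561 and 3561. The juvenile PBS pools had 3298, 4105 and 3321 CPM, and the juvenile E. coli pools 4202, 3800.3 and 3425. The 6 neonatal libraries therefore lay within the range of the 6 juvenile ones. In the heat map, the neonatal columns are pale and the strongest colours sit in JP2.

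**Figure D1:**
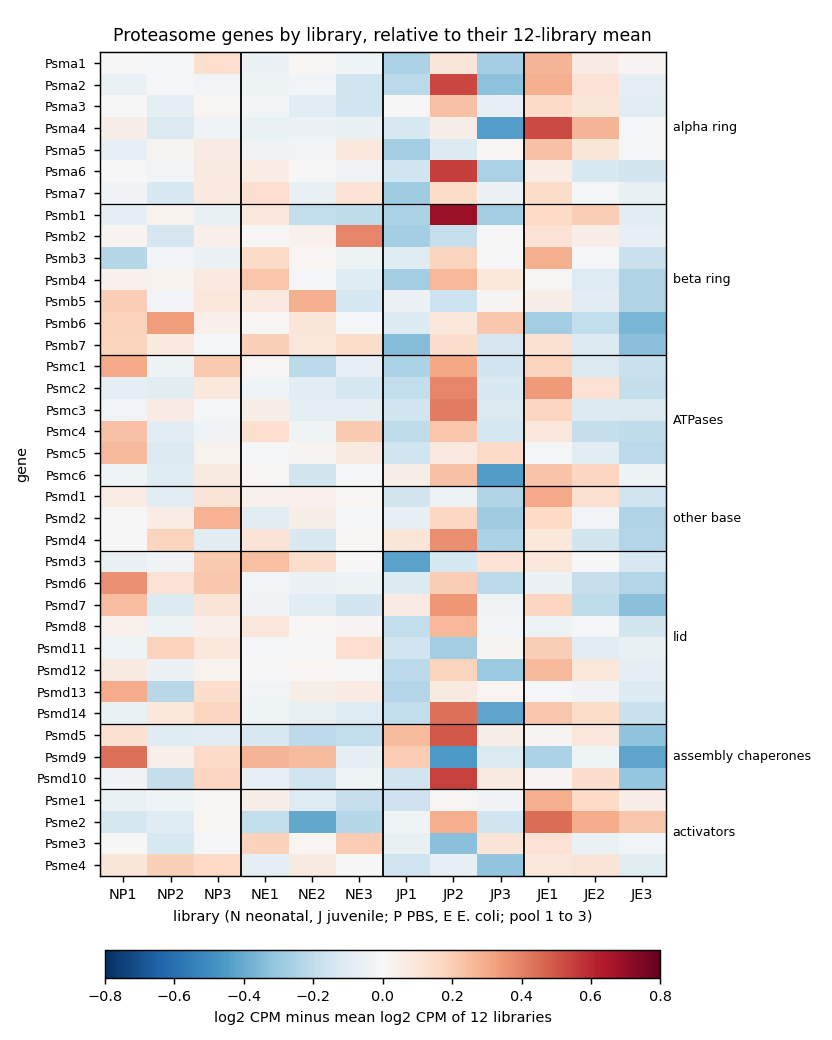
Each row is a tested member, grouped by structure, and each column a library. Colour is the log2 CPM minus the member's mean log2 CPM over the 12 libraries, red above and blue below. Most members are above their mean in JP2 and JE1 and below it in JP1, JP3 and JE3.

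In neonates, no member passed the test for E. coli against PBS. By edgeR's quasi-likelihood test with Benjamini-Hochberg adjustment over 11062 genes, 0 of 38 members rose and 0 fell, where 1.05% of all tested genes rose and 0.145% fell. An unadjusted p under 0.05 was found for 1 member, and DESeq2 and limma voom also called 0. The log2 changes ran from -0.27 (Psmd6) to 0.19 (Psme3), with a median of -0.04 against -0.0027 over all tested genes, and 10 of 38 members (26.3%) lay above 0 against 49.4% of all tested genes. The median size of the change, without its sign, was 0.0619 log2 for the members and 0.141 for all tested genes. The median SE was 0.132 log2 for the members and 0.161 for all tested genes, so sizes and intervals were not compared at like precision.

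The intervals show how large a change could have been missed. The 95% interval of the neonatal log2 change lay within 0.5 either side of 0 for 36 of 38 members (94.7%), as it did for 50.2% of all tested genes, and within 1 for all 38 members. Psmd6, a lid subunit, had the smallest p. Its neonatal PBS pools had 105, 88.2 and 94.2 CPM and its neonatal E. coli pools 79.9, 78.7 and 79.0, groups that did not overlap. The log2 change was -0.27 ± 0.11 (SE) with an adjusted p of 0.326.

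In juveniles, 1 of 38 members rose and 0 fell, where 15.4% of all tested genes rose and 9.42% fell. The member that rose was Psma4, which encodes an alpha-ring subunit (chr9:54950790-54958030, plus strand). At an unadjusted p under 0.05 there were 7 members above 0 and 2 below. Of all 11062 tested genes, 2302 were above 0 and 1787 below at that p (37.0% in either direction). DESeq2 called 2 higher and 0 lower (16.0% and 9.65% of all genes), and limma voom 11 higher and 0 lower (22.9% and 17.6% of all genes). The median log2 change was 0.0092 over the members, with 20 of 38 above 0, and -0.012 over all tested genes. The median size of the change was 0.135 log2 against 0.263 for all tested genes, and the 95% interval lay within 0.5 either side of 0 for 31 of 38 members (81.6%) and for 35.7% of all tested genes. Here too the median SE was smaller for the members, 0.132 log2 against 0.161.

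**Figure D2:**
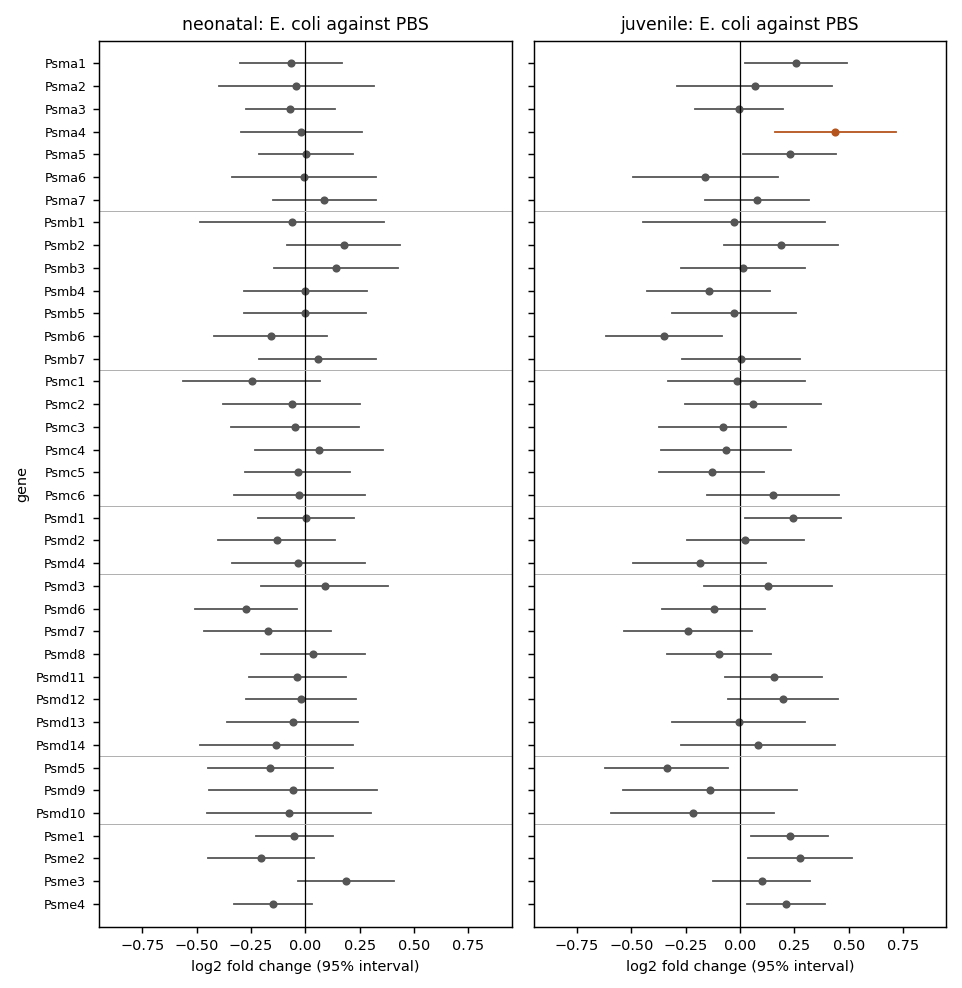
Points are log2 fold changes of the 38 tested members for E. coli against PBS in neonates (left) and juveniles (right), and lines are 95% intervals. Psma4 in juveniles, drawn in colour, is the single member past the adjusted threshold, and the neonatal points lie between -0.27 and 0.19.

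Among alpha-ring genes, Psma4 had 116, 131 and 93.6 CPM in the juvenile PBS pools and 183, 153 and 125 in the juvenile E. coli pools. The groups overlapped, since JE3 lay below JP2. The log2 change was 0.44 ± 0.13 (SE), with an adjusted p of 0.0239 by edgeR. In neonates Psma4 had 131, 117 and 124 CPM after PBS and 122, 123 and 122 after E. coli (log2 -0.02 ± 0.13). The juvenile call passed in 17 of 22 alternatives and was lost when only the groups compared were fitted (adjusted p = 0.0943), and without JP1, JP3, JE1 or JE2 (adjusted p up to 0.174). Exons of Psma4 share 114 bases with AY074887 on the other strand, which had 23 counts in all. Psma1, the next by p in the ring, had 61.4, 78.1 and 60.7 CPM after PBS and 88.4, 76.5 and 74.2 after E. coli in juveniles, with a log2 change of 0.26 ± 0.11 and an adjusted p of 0.105. The other tested alpha-ring genes had juvenile changes from -0.16 (Psma6) to 0.23 (Psma5).

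The beta ring holds the 3 constitutive catalytic subunits. Psmb6, the caspase-like subunit, had 24.1, 27.5 and 30.1 CPM in juvenile PBS pools and 21.4, 22.6 and 20.1 in juvenile E. coli pools, groups that did not overlap. Its log2 change was -0.35 ± 0.12 with an adjusted p of 0.0526 by edgeR. It missed the threshold here and passed it with upper-quartile scaling and without NP2, NP3 or JP1 (4 of 22 alternatives). After E. coli, Psmb6 stood higher in neonates (26.0, 27.7 and 25.8 CPM) than in juveniles, again without overlap, at 0.31 ± 0.12 log2 and an adjusted p of 0.0989.

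Psmb5, the chymotrypsin-like subunit, had 26.7, 24.4 and 27.9 CPM in juvenile PBS pools and 28.4, 25.8 and 23.3 in juvenile E. coli pools, with a log2 change of -0.03 ± 0.13. Its neonatal pools had 31.5, 27.1 and 29.2 CPM after PBS and 29.1, 33.5 and 24.9 after E. coli. Psmb7, the trypsin-like subunit, had 80.5, 113 and 93.3 CPM and then 111, 94.9 and 81.1 in juveniles, a log2 change of 0.01 ± 0.13. Both genes had overlapping groups in each comparison of exposures. Psmb7 shares 34.9% of its exonic bases with Nek6 on the other strand, a gene with 1578 counts in all, so its level is uncertain. Psmb2 was second by p in the ring, with 36.2, 38.4 and 43.5 CPM after PBS and 47.4, 45.3 and 41.7 after E. coli in juveniles, at 0.19 ± 0.12 log2 in juveniles (adjusted p = 0.289), and the remaining 3 beta-ring genes changed by -0.14 (Psmb4) to 0.01 (Psmb3).

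The interferon-inducible subunits are not members, and their ratio to the subunit each replaces was taken within each library from counts per kilobase. Psmb9 over Psmb6 was 1.93, 1.89 and 1.76 in juvenile PBS pools and 3.38, 3.03 and 3.24 in juvenile E. coli pools. Psmb8 over Psmb5 was 2.72, 3.33 and 2.79 and then 3.94, 3.55 and 3.46, and Psmb10 over Psmb7 was 0.188, 0.166 and 0.186 and then 0.245, 0.207 and 0.226. In each of the 3 pairs the juvenile groups did not overlap.

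The juvenile log2 difference was 0.79 for Psmb9 over Psmb6, 0.31 for Psmb8 over Psmb5 and 0.33 for Psmb10 over Psmb7, each with p = 0.1 in a two-sided exact permutation test (n = 3 against 3). That is the smallest p the design allows, and 0.2 after adjustment over 6 tests. In neonates the differences were 0.017 for Psmb8 over Psmb5, 0.0017 for Psmb9 over Psmb6 and -0.0031 for Psmb10 over Psmb7, each with p = 1.0 in the same exact test. In juveniles the replaced subunits Psmb5 and Psmb6 had changes of -0.03 and -0.35 log2, beside 0.44 ± 0.09 for Psmb9 itself (adjusted p = 0.00204 by edgeR). Psmb8 changed by 0.30 ± 0.11 (adjusted p = 0.0674) and Psmb10 by 0.35 ± 0.17 (adjusted p = 0.142). Both had overlapping juvenile groups and did not pass by edgeR, while limma voom called both. Psmb9 shares 15.7% of its exonic bases with Tap1 on the other strand (13108 counts), so its own level is uncertain.

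**Figure D3:**
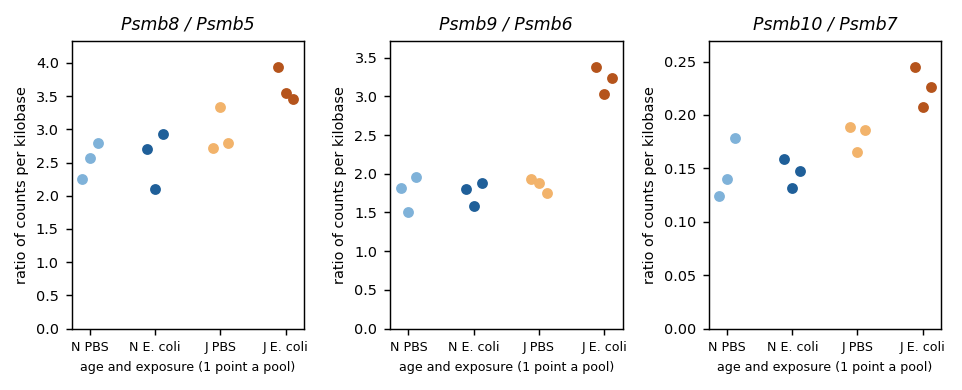
The 3 panels give the ratio of counts per kilobase of each interferon-inducible catalytic subunit to the constitutive subunit it replaces, with 1 point per pool and the axis from 0. The 3 juvenile E. coli pools (J E. coli) lie above the other 9 libraries in each panel.

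By edgeR, 0 of the 17 members in the base and lid of the regulatory particle passed in neonates and 0 of 17 in juveniles. Of all tested genes, 1.05% rose and 0.145% fell in neonates, and 15.4% rose and 9.42% fell in juveniles. With shares that small in neonates, a count of 0 of 17 there does not set these genes apart. An unadjusted p under 0.05 was found for 1 gene in each age (Psmd6 in neonates, Psmd1 in juveniles). Of all 11062 tested genes, 1327 had such a p in neonates and 4089 in juveniles. DESeq2 called 0 in both ages (16.0% of all genes higher and 9.65% lower in juveniles). For limma voom the count was 0 in neonates. Of all genes in neonates, DESeq2 called 1.70% higher and 0.452% lower, and limma voom 1.94% and 0.877%. In juveniles limma voom called Psmd1, Psmd12 and Psmd14, all higher (22.9% of all genes higher and 17.6% lower). Juvenile changes of the 6 ATPases ran from -0.13 ± 0.11 (Psmc5) to 0.15 ± 0.14 (Psmc6). Psmc5 had 66.9, 78.6 and 82.9 CPM after PBS and 73.9, 70.2 and 64.3 after E. coli, and Psmc6 57.6, 65.8 and 41.0 and then 65.4, 62.8 and 54.4, with overlapping groups in both genes. The 8 lid genes ran from -0.24 ± 0.14 (Psmd7) to 0.20 ± 0.12 (Psmd12). Psmd7 had 79.0, 95.8 and 74.1 CPM after PBS and 85.1, 65.5 and 59.9 after E. coli in juveniles, and Psmd12 82.6, 108 and 78.0 and then 115, 102 and 91.0, again overlapping. The neonatal log2 changes of these 4 genes ran from -0.17 (Psmd7) to -0.02 (Psmd12). Of the other base subunits, Psmd1, a scaffold, had the largest change at 0.25 ± 0.10 (adjusted p = 0.0979), with 193, 208 and 181 CPM after PBS and 264, 234 and 192 after E. coli. Psmd4, a ubiquitin receptor, had 56.6, 68.4 and 44.3 CPM and then 56.0, 47.8 and 45.0, a change of -0.19 ± 0.14. The 3 assembly chaperones had negative values in both ages, and none passed. Psmd5 had 51.3, 60.8 and 44.5 CPM in juvenile PBS pools and 43.6, 45.9 and 34.4 in juvenile E. coli pools, overlapping groups with a log2 change of -0.34 ± 0.13 (adjusted p = 0.0772), and it passed with upper-quartile scaling and without JP3. Psmd10 had 18.3, 29.8 and 21.5 CPM after PBS and 20.7, 22.5 and 16.5 after E. coli in juveniles, a change of -0.22 ± 0.18 with overlapping groups.

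Both members called between the ages were activators. Psme1 and Psme2 encode the subunits of the interferon-inducible ring, Psme3 a nuclear ring of the same family, and Psme4 an activator of another family. All 4 had positive log2 changes in juveniles, from 0.10 (Psme3) to 0.28 (Psme2), and none passed the edgeR test. An unadjusted p under 0.05 was found for 3 of them in juveniles, against 37.0% of all tested genes. DESeq2 called Psme1 (16.0% of all genes higher), and limma voom called Psme1, Psme2 and Psme4 (22.9% of all genes higher). In neonates 3 of the 4 were negative, from -0.21 (Psme2) to -0.05 (Psme1), and Psme3 was positive at 0.19. None passed in neonates by edgeR, DESeq2 or limma voom, or at an unadjusted p under 0.05.

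Psme2 (chr14:55587441-55591113, minus strand) had 164, 148 and 139.7 CPM in juvenile E. coli pools and 105, 90.6 and 103 in neonatal E. coli pools. Every neonatal value lay below every juvenile value. The log2 difference, neonatal minus juvenile, was -0.60 ± 0.11 (adjusted p = 0.00171 by edgeR), and it passed in all 22 alternatives (log2 -0.72 to -0.53, adjusted p 1.8e-05 to 0.0158). After PBS the neonatal pools had 109, 113 and 122 CPM and the juvenile ones 118, 147 and 108, overlapping groups that differed by -0.12 ± 0.11 log2 (adjusted p = 0.665). Among non-members, Psmb9 was also lower in neonates after E. coli, at -0.56 ± 0.09 log2 (adjusted p = 0.000361, passing in all 22 alternatives). Psmb8 was lower by -0.36 ± 0.11 (adjusted p = 0.039, passing in 13 of 22). Psmb10 stood at -0.40 ± 0.17 and did not pass (adjusted p = 0.118).

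Within an age, Psme2 had changes of 0.28 ± 0.11 log2 in juveniles (adjusted p = 0.0866) and of -0.21 ± 0.11 in neonates (adjusted p = 0.532). The difference between these responses was -0.48 ± 0.16 with an adjusted p of 0.0859, so the responses of Psme2 were not shown to differ. A near-identical pseudogene, Psme2b-ps, was counted as a row of its own with 53.0, 44.3 and 52.3 CPM in neonatal E. coli pools and 110.4, 92.1 and 85.8 in juvenile ones, -0.95 ± 0.15 log2 (adjusted p = 0.000456). Reads may have been split between the rows. With both rows summed, the age difference after E. coli was -0.72 ± 0.12 log2 (adjusted p = 0.000699).

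Psme1 (chr14:55578123-55581529, plus strand) lies beside Psme2. It had 450.1, 509 and 494 CPM in juvenile PBS pools and 616, 563 and 524 in juvenile E. coli pools, groups that did not overlap, with a log2 change of 0.23 ± 0.08 and an adjusted p of 0.0556 by edgeR. Neonates had 486, 493 and 508 CPM after PBS and 521, 470.5 and 444 after E. coli, a change of -0.05 ± 0.08. After E. coli, Psme1 stood at -0.25 ± 0.08 log2 in neonates against juveniles, again without overlap, with an adjusted p of 0.0518. That comparison passed in 9 of 22 alternatives, and the juvenile change in 6 of 22.

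Psme4 (chr11:30771726-30880361, plus strand) had 245, 261 and 257 CPM in neonatal PBS pools and 205, 219.5 and 185 in juvenile PBS pools, groups that did not overlap. It was higher in neonates by 0.33 ± 0.08 log2 (adjusted p = 0.0428 by edgeR), which passed in 9 of 22 alternatives. The call was lost with DESeq2's size factors in edgeR, without a filter, with only the groups compared, and without NP1, NP2, NP3, NE1, NE2, NE3, JP1, JP3, JE1 or JE2 (adjusted p up to 0.163). After E. coli the levels overlapped, at 219, 242 and 229 CPM in neonates and 244, 246 and 215 in juveniles (log2 -0.03 ± 0.08).

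Psme3 had 171, 157 and 169.9 CPM in neonatal PBS pools, 195, 174 and 197 in neonatal E. coli pools, 165, 136 and 185 in juvenile PBS pools and 186, 165 and 169 in juvenile E. coli pools. The neonatal groups did not overlap, and the change of 0.19 ± 0.10 log2 did not pass (adjusted p = 0.538 by edgeR).

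**Figure D4:**
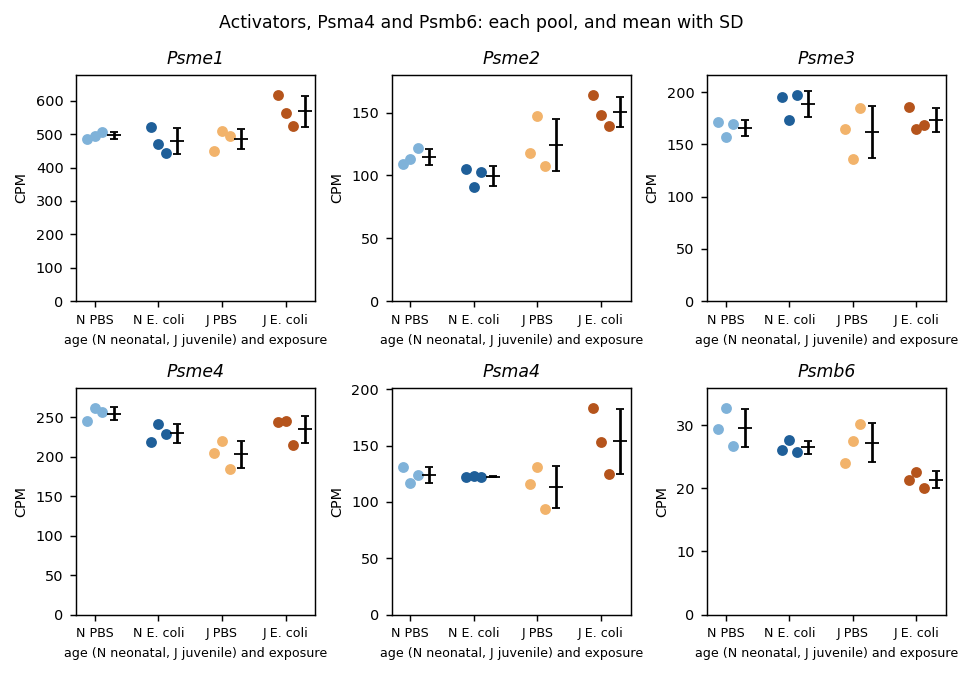
Dots are the CPM of each pool and black bars the mean with SD (n = 3 pools) for the 4 activators, Psma4 and Psmb6, with axes from 0. The juvenile E. coli pools of Psme2 all lie above the neonatal E. coli pools, and those of Psma4 are spread from 125 to 183 CPM.

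Over all members, the comparison of ages after PBS gave 1 of 38 higher in neonates (Psme4) and 0 lower, where 2.32% of all tested genes were higher and 1.75% lower. After E. coli 0 of 38 were higher in neonates and 1 lower (Psme2), where 6.42% of all tested genes were higher and 11.3% lower. Without JP2, Psmd6 was also higher in neonates after PBS, and without JE3, Psma4 and Psme1 were also lower in neonates after E. coli. The difference of the responses, neonatal minus juvenile, called 0 of 38 members in either direction by edgeR, where 1.94% of all tested genes were positive and 5.05% negative. An unadjusted p under 0.05 was found for 4 members, all negative, against 22.2% of all tested genes in either direction. DESeq2 called 0 members (2.56% of all genes positive, 6.30% negative) and limma voom called 6, all negative (8.35% and 12.4%). The responses and age comparisons share their libraries, so their values stand side by side and are not independent.

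Of the 12 libraries, leaving out JP2 moved the count of juvenile calls the most. JP2 was the highest of the 3 juvenile PBS pools for 29 of 38 members (76.3%), against 40.4% of all tested genes, and it lay a median of 0.35 log2 above the other pools. Psmb1, a beta-ring subunit, had 116 CPM in JP2 beside 60.7 and 59.8 in JP1 and JP3. Psma2 had 256 CPM beside 152 and 141, and Psma6, also of the alpha ring, 209 beside 128 and 119. JP2 also had the highest proliferation sum of its group (2616 CPM beside 1485 and 1440) and the highest sum of 7 immature T cell genes (383 CPM beside 51.9 and 70.9). The immature T cell genes summed to 256, 291 and 228 CPM in the juvenile E. coli pools and 51.7, 101 and 53.1 in the neonatal ones. Without JP2, juvenile PBS pools of 51.9 and 70.9 CPM are thus compared with juvenile E. coli pools of 228 to 291 CPM. The part of these sums in the result was not tested. NP1, with 583 CPM of the immature T cell genes beside 156 and 116, was the highest of its group for 13 of 38 members (34.2%).

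Without JP2, 9 of 38 members rose in juveniles (23.7%) and 0 fell, where 17.0% of all tested genes rose and 1290 of 11290 fell. They were Psma1, Psma2, Psma4, Psmb1, Psmd12, Psmd14, Psme1, Psme2 and Psme4, from 0.27 (Psme1) to 0.55 (Psma4) on the log2 scale. The median of the members was then 0.13 log2 against 0.0044 over all tested genes. Above 0 lay 29 of 38 members and 50.4% of all tested genes. Psmb1 went from -0.03 to 0.36 (adjusted p = 0.0301 by edgeR) and Psma2 from 0.07 to 0.39 (adjusted p = 0.00815). With NP1 and JP2 both left out, 9 members were called as well. Without JE3, 4 members rose (Psma4, Psmd1, Psme1 and Psme4). Without JE2 none was called, without NP2 or NP3 Psmb6 fell as well as Psma4 rising, and without JP1, JP3 or JE1 the single call was a fall, of Psmb6, Psmd5 and Psmd7 respectively. The difference of responses called 6 members without JP2 (Psma1, Psma2, Psma4, Psmd14, Psme2 and Psme4) and 2 without JE3 (Psma4 and Psme4), all negative, against 0 with all libraries. Apart from the juvenile response without JP2, these counts are given without the share of all genes in the same fit. They are therefore not read as results about the members. No label marks JP2 as a failed library, and the values with all 12 libraries come first here.

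**Figure D5:**
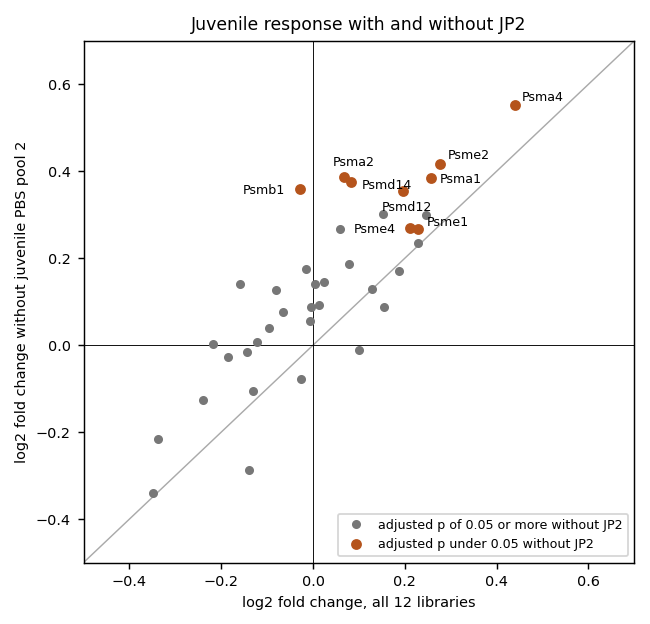
Each point is a tested member, with its juvenile log2 fold change from all 12 libraries on the x axis and without juvenile PBS pool 2 (JP2) on the y axis. The grey diagonal marks equal values. Most points lie above it, and the 9 coloured members passed the adjusted threshold without JP2.

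The juvenile E. coli pools also stood apart from each other. JE1 was the highest of its group for 31 of 38 members and JE3 the lowest for 36 of 38, against 35.2% and 39.6% of all tested genes. JE1, JE2 and JE3 had proliferation sums of 5231, 4458 and 3449.8 CPM and interferon-response sums of 3288, 2563 and 2091 CPM, in the same order as the member sums, and the part of those sums in the members' levels was not tested. Leaving out JE1 took the Psma4 call away (adjusted p = 0.174 by edgeR, all 12 libraries 0.0239).

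Other genes of the pathway were taken from 6 lists of 47 genes, all of which were tested. In neonates 0 of 47 passed in edgeR (1.05% of all tested genes rose and 0.145% fell). An unadjusted p under 0.05 was found for 6 of them, against 1327 of all 11062 tested genes. DESeq2 called 1, Ube2d2, which was lower (1.70% of all genes higher and 0.452% lower). Limma voom called 2, Ube2d2 lower and Zfand2a higher (1.94% of all genes higher and 0.877% lower). In juveniles 4 rose (8.51%) and 2 fell (4.26%), where 15.4% of all tested genes rose and 9.42% fell. Pomp, the chaperone that matures the core particle, had 104, 119 and 119 CPM after PBS and 166, 144 and 127 after E. coli in juveniles, groups that did not overlap (0.36 ± 0.10 log2, adjusted p = 0.0184). The Pomp call was lost without JP1 (adjusted p = 0.0845), without JE1 (0.23 log2, adjusted p = 0.141) and with only the groups compared (adjusted p = 0.0795). Zfand5, which binds ubiquitin and the proteasome, rose by 0.44 ± 0.10 (adjusted p = 0.00514). Ube2l6, a conjugating enzyme of the ubiquitin-like Isg15, had 0.824 to 1.59 CPM in juvenile PBS pools and 18.0, 10.4 and 5.72 in juvenile E. coli pools, 3.23 ± 0.45 log2 (adjusted p = 0.000118). Psmb9, given above, was the remaining one that rose.

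The genes that fell in juveniles were Rps27a, which encodes ubiquitin fused to a ribosomal protein, and Ngly1, the glycanase that processes the transcription factor Nfe2l1. Rps27a changed by -0.64 ± 0.18 (adjusted p = 0.0156 by edgeR), and JP2 held 421 CPM of it beside 241 and 221 in the other juvenile PBS pools. Without JP2 the change of Rps27a was -0.29 log2 and still passed, and the call was lost without JE1 (adjusted p = 0.0608), without JE2 (0.0621) and with only the groups compared (0.0601). Ngly1 changed by -0.39 ± 0.12 (adjusted p = 0.0241), and JP2 again held the most, 194 CPM beside 138 and 135. Without JP2 the change of Ngly1 was -0.20 and the call was lost (adjusted p = 0.068), as it was without JE1 (0.0701), without JE2 (0.0619), with only the groups compared (0.0801), and with NP1 and JP2 both left out (0.0744). Nfe2l1 itself, a regulator of proteasome genes, had a log2 change of -0.02 ± 0.12 in juveniles and -0.04 ± 0.13 in neonates. The 8 other subunits and proteasome-bound factors have symbols outside the member rule. Their juvenile changes ran from -0.26 (Psmf1, an inhibitor) to 0.22 (Uchl5, a deubiquitinase). None passed by edgeR, while limma voom called Psmf1, AI314180 and Txnl1. Shfm1, a small lid subunit that is not a member, had a log2 change of -0.24 ± 0.20, with 55.2 CPM in JP2 beside 29.0 and 27.4.

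The remaining genes that the naming rule took from the lists did not pass in juveniles. Psmg1 and Psmg2, chaperones of the alpha ring, had log2 changes of -0.17 ± 0.18 and -0.43 ± 0.18 (adjusted p = 0.512 and 0.101), and the groups overlapped for Psmg1 but not for Psmg2. Nfya and Nfyc, subunits of the CCAAT-binding factor, had 0.10 ± 0.11 and -0.13 ± 0.11. Uba6, a ubiquitin-activating enzyme, had 77.7, 86.5 and 62.0 CPM after PBS and 98.1, 92.1 and 87.6 after E. coli in juveniles, groups that did not overlap (0.30 ± 0.12 log2, adjusted p = 0.0884 by edgeR). Rad23b, a shuttle that carries ubiquitinated proteins, had a log2 change of 0.20 ± 0.09 (adjusted p = 0.135). Zfand2a had 0.47 ± 0.19 in juveniles (adjusted p = 0.0944) and 0.61 ± 0.19 in neonates (adjusted p = 0.169). Between the ages after PBS, Zfand2a alone of 47 list genes was called (2.32% of all genes higher and 1.75% lower). It was higher in neonates by 0.85 ± 0.19 log2 (adjusted p = 0.0211, in 18 of 22 alternatives). After E. coli 2 were higher in neonates, Zfand2a among them, and 4 lower (6.42% and 11.3% of all genes). Zfand2a stood at 0.9997 ± 0.19 (adjusted p = 0.00171, in all 22). The 4 were Psmb8, Psmb9, Ube2l6 and Uba6, the last at -0.40 ± 0.12 (adjusted p = 0.0324).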

How the data were processed

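Per the submitters' processing notes, bases were called with CASAVA 1.8.4 and STAR aligned the reads to the mouse build GRCm38 (mm10). The authors' deposited values are raw whole-number counts per gene symbol. The table's name points to SeqMonk as the counter, but version, strand setting, gene models and filters were not given in the sources used here, while the cDNA kit in the labels' protocols does not mark strand, so overlapping genes cannot be told apart. Libraries were PCR-amplified and the labels name no molecular identifiers, so limits from depth cover counting error only.

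Genes passing edgeR's filterByExpr (minimum count 10, total 15) were 11062 of 19434, with 99.9% of the counts. Group means of all 12 libraries were fitted in edgeR 4.0.16 (under R 4.3.3) with TMM scaling, no covariate, its quasi-likelihood F test, Benjamini-Hochberg adjustment over all tested genes and a threshold of 0.05, for 5 contrasts. Adjusted p-values are from this test unless another tool is named. CPM are TMM-scaled over the tested genes, and log2 changes are ± SE. No library was a duplicate: each pair within a group differed by more than sampling noise, with a chi-square per degree of freedom of 3.96 or more. Replicate numbers did not pair the libraries. GENCODE M21 (GRCm38) gave exon lengths and coordinates for 39 of 39 members, and promoters are from RefSeq.

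Members and lists were chosen with earlier results of these data known. Genes were named by a rule: the activators, the constitutive catalytic subunits, the 2 members of smallest juvenile p of each other group, called members, and the 3 genes of each pathway list of smallest p. Uncalled list genes are given by their log2 change. Psmd6, Psmb1, Psma2, Psma6 and Nfe2l1 were named after their values were seen. Alternatives were DESeq2 1.42.0, voom in limma 3.58.1 with weights, RLE or upper-quartile scaling, no filter, a stricter filter (10 counts in all libraries of a group), fits of just the groups under comparison, a replicate block, each library left out, and NP1 with JP2 left out. Summing Psme2 with Psme2b-ps was chosen after seeing the data. The fits were tested on simulated counts with changed genes drawn from all tested genes, not from the members alone. Of 100 juvenile changes of 0.5 log2, 38 were recovered, and of 100 changes of 1 log2, 78. Of 10862 unchanged genes, 8 were called. An uncalled change of 0.5 log2 could thus have been missed. Figures used matplotlib 3.10.9. Methylation data were not used here, and 1 gene of the lists is not reported here.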

Additional observations from a re-analysis of the deposited data

Results flagged for a closer look

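For 2 genes of the pathway lists, none of them a member, the neonatal and juvenile responses to E. coli differed by a test of the difference itself (edgeR's quasi-likelihood test, adjusted over all 11062 tested genes). They are 4.26% of the 47 list genes, beside 5.05% of all tested genes with a negative difference. Psmb9 differed by -0.60 ± 0.13 log2, neonatal minus juvenile (adjusted p = 0.0111), with changes of -0.15 in neonates and 0.44 in juveniles, and it missed the threshold without NE2 (-0.52, adjusted p = 0.0512). Ube2l6 differed by -3.40 ± 0.74 log2 (adjusted p = 0.0125), with -0.17 in neonates, at levels under 1.60 CPM in all neonatal libraries, and 3.23 in juveniles.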

How the results depend on the processing

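No called value changed sign under any alternative run, but uncalled values near 0 did. The median of the members ran from -0.09 to 0.13 log2 with each library left out in the juvenile response and was -0.048 with upper-quartile scaling (0.0092 with all libraries). In the difference of responses it ran from -0.14 to 0.045 and was 0.024 with upper-quartile scaling (-0.036). With each library left out it ran from -0.0017 to 0.15 in ages after PBS (0.055) and from -0.086 to 0.11 in ages after E. coli (0.0056). Without JP2 Psma6 went from -0.16 to 0.14, Psmb1 from -0.03 to 0.36 (adjusted p = 0.0301) and Psme3 from 0.10 to -0.01. The neonatal response called 0 members in every alternative run. The juvenile response called 1 member, 3 with upper-quartile scaling (Psma4 up, Psmb6 and Psmd5 down), 2 with DESeq2 or the stricter filter, 11 with limma voom, 0 with only the groups compared, 9 with NP1 and JP2 both left out, and 0 to 9 with each library left out. The difference of responses called 0 members, 6 with limma voom, 3 with NP1 and JP2 left out, and 0 to 6 with each library left out. Ages after PBS gave 1, 0 with RLE scaling, without a filter or with only the groups compared, 3 with limma voom, and 0 to 2 with each library left out. Ages after E. coli gave 1, 2 with RLE scaling, DESeq2, the stricter filter or NP1 and JP2 left out, 3 with limma voom, and 1 to 3 with each library left out. The cause was not tested. Limma voom called 22.9% of all genes higher and 17.6% lower in the juvenile response, and 8.35% and 12.4% in the difference. Its shares were 4.75% and 3.63% in ages after PBS, and 15.5% and 18.9% after E. coli. DESeq2 called 16.0% and 9.65% in the juvenile response, and 6.53% and 12.25% in ages after E. coli. For the other runs listed here the calls over all genes are not set beside the counts. Those counts are therefore not read as results about the members. Replicate numbers are shared by name alone: of 18 pairs of libraries with the same number, 2 had deviations correlated over 0.1 (r -0.18 to 0.22). With a replicate block the members called were 0 in the neonatal response, 1 in the juvenile response, 0 in the difference, 1 in ages after PBS and 1 after E. coli. With 3 pools a group and 3 counts equal to 0.374 to 0.494 CPM, Psma8 is below what depth can compare.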
